A study of Mus musculus with 3 samples.

Results

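The urea cycle and ammonia genes described here were 10 genes chosen by symbol among the 32285 genes counted in single nuclei of mouse liver. They encode the mitochondrial enzymes Nags, Cps1 and Otc, the cytosolic enzymes Ass1, Asl and Arg1, the mitochondrial carriers Slc25a15 and Slc25a13, and the nitrogen-releasing enzymes Gls2 and Hal. All 10 had at least 50 UMIs (unique molecular identifiers, each standing for 1 captured RNA molecule) in the hepatocyte-like nuclei described below, where they were compared between conditions and between zones. The study sequenced nuclei of frozen liver from C57BL/6J males, with 1 library per mouse: 1 mouse on a normal diet (ND) and 2 mice in the STZ-HFHC model of steatohepatitis with fibrosis (STZ-HFHC 1 and STZ-HFHC 2). The model mice received 0.2 mg of streptozocin (STZ), a toxin for insulin-producing cells, at day 3 after birth, and ate a high-fat, high-cholesterol (HFHC) diet from week 4. Insulin loss and diet were thus given together, and no library had only 1 of them. The age at collection is not given in the sources used here.

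The urea cycle disposes of ammonia in the liver. Cps1, switched on by the N-acetylglutamate that Nags makes, joins ammonia to bicarbonate, Otc passes the product to ornithine, and Ass1, Asl and Arg1 complete the route to urea in the cytosol. Slc25a15 brings ornithine into mitochondria, Slc25a13 sends out the aspartate that Ass1 uses, Gls2 frees ammonia from glutamine and Hal takes it from histidine. In the liver lobule this work is concentrated near the portal vein, whereas hepatocytes around the central vein capture leftover ammonia as glutamine through Glul.

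After filtering, 28336 of 30989 barcodes were kept, at a median depth of 4068 (ND), 3015 (STZ-HFHC 1) and 4027 (STZ-HFHC 2) UMIs. Pairs of libraries shared 20 to 27 barcodes. Nuclei were clustered without the 10 genes, and clusters in which at least 3 of 10 hepatocyte markers were common and no other list was raised were called hepatocyte-like. This gave 4532 (ND), 2966 (STZ-HFHC 1) and 4764 (STZ-HFHC 2) nuclei, with a median of 4114.5, 7907.5 and 6549.5 UMIs. The name rests on the absence of other markers as much as on hepatocyte markers. In ND, the 10 hepatocyte markers together stood at 13487 CPM (a gene's UMIs relative to the total of those nuclei) in hepatocyte-like nuclei and at 14130.4 CPM in T or NK cell-like nuclei. In STZ-HFHC 1 the same sums were 7728 and 6355 CPM, and in STZ-HFHC 2 they were 6616 and 5672 CPM. Hepatocyte RNA was therefore counted in nuclei of every class, and it moved with condition, since the marker sum was lower in both STZ-HFHC mice. Markers of other classes were counted in hepatocyte-like nuclei too: 9 cholangiocyte markers summed to 202 CPM in ND against 514 and 346 CPM in the STZ-HFHC mice, and 14 macrophage markers to 144 CPM against 219.7 and 190.7 CPM. Their part in the results was not tested. ND and STZ-HFHC hepatocyte-like nuclei lay almost wholly in separate clusters. The codes in the library labels also differ between ND and STZ-HFHC, so batch and condition cannot be told apart.

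Nags, Otc and Hal were the members that passed the rule of size between conditions, all 3 downward, and the 250 bases upstream of their starts are shown because they moved in the same direction. The sequences are those of RefSeq on build GRCm38.p6, written 5′ to 3′ on the plus strand that carries each gene. Capitals mark matches, on either strand, to 5 short motifs picked with the sequences in view: the TCF/LEF motif CTTTGAT, the C/EBP motif TTGCNNAA, the NF-Y motif CCAAT, the core TGACG of cyclic AMP response elements, and the TATA motif TATAAA.
Hal, chr10:93488518-93488767: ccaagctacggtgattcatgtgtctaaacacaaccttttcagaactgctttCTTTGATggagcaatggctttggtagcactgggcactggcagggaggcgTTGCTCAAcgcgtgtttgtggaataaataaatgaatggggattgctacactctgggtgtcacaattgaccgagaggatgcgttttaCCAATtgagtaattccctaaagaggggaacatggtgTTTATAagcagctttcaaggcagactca
Nags, chr11:102145263-102145512: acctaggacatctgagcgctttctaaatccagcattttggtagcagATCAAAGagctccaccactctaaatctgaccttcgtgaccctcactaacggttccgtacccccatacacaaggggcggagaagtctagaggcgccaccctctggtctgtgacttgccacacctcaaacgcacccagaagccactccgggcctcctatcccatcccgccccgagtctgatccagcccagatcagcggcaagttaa
Otc, chrX:10252055-10252304: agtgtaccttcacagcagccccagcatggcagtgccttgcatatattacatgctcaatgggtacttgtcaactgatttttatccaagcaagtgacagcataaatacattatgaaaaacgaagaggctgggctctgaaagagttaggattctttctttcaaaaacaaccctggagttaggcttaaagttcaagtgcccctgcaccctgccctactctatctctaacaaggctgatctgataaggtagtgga
The Hal window held the TCF/LEF motif with its first base 199 bases before the start, the C/EBP motif 150 before it, the NF-Y motif 64 before it and the TATA motif, on the opposite strand, 28 before it. The Nags window held the TCF/LEF motif, on the opposite strand, 204 bases before the start, and the Otc window held none of the 5. Among all 32851 promoter windows of this length, 3.21% held the TCF/LEF motif, 9.56% the C/EBP motif, 33.8% the NF-Y motif, 17.8% the TGACG core and 12.4% the TATA motif. These are matches of letters and do not show that a factor binds. Of the 10 members, 6 had an entry among the RefSeq promoters, namely these 3 and Ass1, Slc25a13 and Slc25a15. Among the windows not shown, that of Slc25a13 held the NF-Y motif and the TGACG core, and those of Ass1 and Slc25a15 held none of the 5.

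The first comparison asked which members differed between STZ-HFHC and ND hepatocyte-like nuclei. Values of the STZ-HFHC mice are given in the order STZ-HFHC 1, STZ-HFHC 2 from here on. A single ND mouse gives no spread, and an exact permutation test of 1 mouse against 2 could not go below 0.333, so no test was made. A member was called when its ratio to ND passed 1.5-fold and had 1 sign over the STZ-HFHC mice. By this rule 3 of the 10 members fell and 0 rose, beside 11.2% of the 14729 genes tested that fell and 16.5% that rose. The median log2 ratio to ND over the members was -0.80 and -0.30 in the STZ-HFHC mice, against 0.09 and 0.11 over all genes tested.

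Among the mitochondrial enzymes, Nags fell furthest. Nags (chr11:102145513-102149477, plus strand, GENCODE M21 on GRCm38) stood at 16.6 CPM in ND (exact Poisson 95% interval 14.9–18.4) against 5.18 (4.34–6.13) and 6.05 CPM (5.26–6.92) in the STZ-HFHC mice. The STZ-HFHC values were apart from ND by more than counting error and close to each other, and the mean log2 ratio to ND was -1.57 ± 0.16 (SD, n = 2). They rested on 363, 135 and 213 UMIs, the fewest of any member. Otc (chrX:10252305-10321024, plus strand) stood at 268 CPM in ND against 146 and 155 CPM in the STZ-HFHC mice. Both model mice again lay together below ND, and the mean log2 ratio was -0.84 ± 0.06 (SD, n = 2). Cps1 (chr1:67123026-67231259, plus strand), the entry enzyme between them in the pathway, was at 7359 CPM in ND against 8113 and 10227 CPM in the STZ-HFHC mice. Its log2 ratios of 0.14 and 0.47 were both positive and both under the limit. The 3 mitochondrial enzymes thus did not move together: the activator enzyme and Otc were lower in both mice, and Cps1 was not.

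None of the cytosolic enzymes passed the rule. Ass1 (chr2:31470207-31520672, plus strand), which joins citrulline to aspartate, was at 998 CPM in ND against 977 and 1237 CPM in the STZ-HFHC mice, so that the ND value lay between the others. Asl (chr5:130011258-130029247, minus strand), which splits argininosuccinate, was at 406 CPM in ND against 142 and 323 CPM in the STZ-HFHC mice. Its log2 ratios of -1.52 and -0.33 had the same sign, but only STZ-HFHC 1 was past the limit. Arg1 (chr10:24915221-24927484, minus strand), which releases urea from arginine, was at 1753 CPM in ND against 1064 and 1364 CPM in the STZ-HFHC mice, with log2 ratios of -0.72 and -0.36. In Asl and Arg1 the 2 model mice differed from each other by more than counting error, as they did in every other member except Nags and Otc.

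Neither carrier passed the rule. Slc25a13 (chr6:6041218-6217173, minus strand) was at 1195 CPM in ND against 1209 and 1254 CPM in the STZ-HFHC mice, the smallest relative spread among the members, with a mean log2 ratio of 0.04 ± 0.04 (SD, n = 2). Slc25a15 (chr8:22375551-22398597, minus strand) was at 455 CPM in ND against 389 and 639.9 CPM in the STZ-HFHC mice. Its model mice lay on opposite sides of ND.

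Of the nitrogen-releasing enzymes, Hal fell and Gls2 did not pass the rule. Hal (chr10:93488768-93519304, plus strand), the first enzyme of histidine breakdown, was at 298 CPM in ND against 81.8 and 131 CPM in the STZ-HFHC mice. Both model mice were well below ND, with a mean log2 ratio of -1.53 ± 0.48 (SD, n = 2). They were apart from each other by more than counting error. Gls2 (chr10:128194457-128210004, plus strand), which splits glutamine in liver mitochondria, was at 211 CPM in ND against 99.3 and 175 CPM in the STZ-HFHC mice, with log2 ratios of -1.09 and -0.27. When STZ-HFHC 1 alone was set against ND, 6 members passed the limit, all downward: Nags, Otc and Hal with Asl, Arg1 and Gls2. With STZ-HFHC 2 alone, 3 did.

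**Figure D1:**
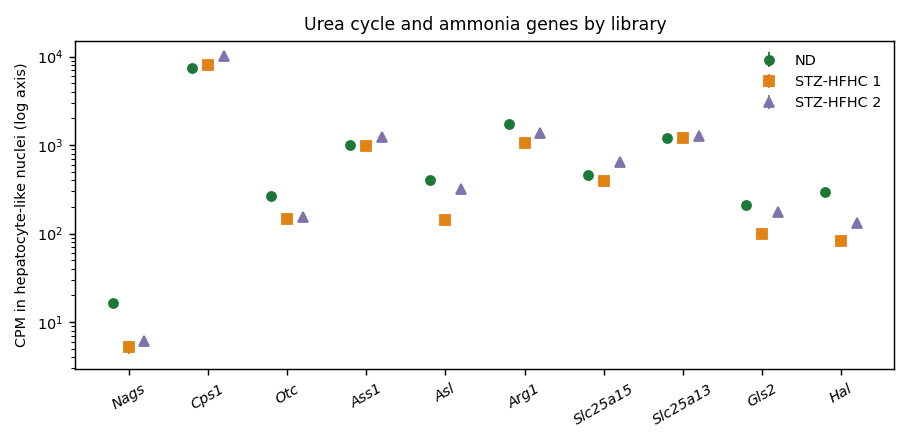
Level of each member in hepatocyte-like nuclei of the 3 libraries, in CPM on a log axis, with exact Poisson 95% intervals that are mostly smaller than the points. Nags, Otc and Hal lie lower in both STZ-HFHC libraries than in ND, and Slc25a13 lies between 1195 and 1254 CPM in all 3.

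Over whole libraries, with every class of nuclei included, the same 3 members showed the same order. Hal was at 335 CPM in ND against 76.3 and 119.6 CPM in the STZ-HFHC mice, Otc at 257, 127 and 139.7 CPM, and Nags at 16.2, 4.98 and 5.77 CPM. The order was not particular to them. Gls2 (234, 84.7 and 156 CPM) and Asl (418, 130 and 292 CPM) were lower in both STZ-HFHC mice too. So were Arg1 (1685, 888 and 1195 CPM) and, by less, Slc25a13 (1100, 959 and 1081 CPM). The rule of size was not applied to whole libraries. Of all Hal UMIs, 45.5% lay in hepatocyte-like nuclei in ND, against 63.0% and 69.3% in the STZ-HFHC mice. This rise was not particular to Hal, since the share of each other member rose too, as for Cps1 (55.7%, 71.6% and 71.8%). Of all kept UMIs, hepatocyte-like nuclei held 21849705 of 42715797 in ND. They held 26062303 of 44350401 and 35219544 of 55632923 in the STZ-HFHC mice. In whole libraries, fewer hepatocyte nuclei and less RNA per nucleus cannot be told apart.

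Levels of different genes were compared per kb of gene span, since nuclear RNA holds introns. The scale is approximate, because the libraries count 3′ ends and whether intronic reads were counted is not given. The order depends on it: without division by span, Cps1 (7359 CPM), Arg1 (1753 CPM) and Slc25a13 (1195 CPM) were highest in ND. In ND, Arg1 had the highest value, 143 CPM per kb, followed by Cps1 at 68.0, Asl at 22.6, Ass1 at 19.8, Slc25a15 at 19.7, Gls2 at 13.6, Hal at 9.77, Slc25a13 at 6.79, Nags at 4.19 and Otc at 3.90 CPM per kb. In STZ-HFHC 1 the order began with Arg1 at 86.8, Cps1 at 75.0 and Ass1 at 19.4 CPM per kb and ended with Hal at 2.68, Otc at 2.12 and Nags at 1.31 CPM per kb. In STZ-HFHC 2, Arg1 and Cps1 again led, at 111 and 94.5 CPM per kb, and Otc and Nags were again last, at 2.25 and 1.53 CPM per kb.

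The second comparison asked how the members were spread along the lobule. Each hepatocyte-like nucleus got a zone score, the mean of 10 periportal genes minus the mean of 13 pericentral genes, none of them a member. In each library the nuclei were split by score into 3 equal parts, and the part with the highest scores (portal-scored) was set against that with the lowest (central-scored), with 1510, 988 and 1588 nuclei in a part. A member was called when the ratio passed 1.5-fold in the same direction in all 3 libraries. No p is given, since an exact two-sided test over 3 libraries could not go below 0.25. Genes outside the score that mark central hepatocytes had the direction known for them: the log2 ratio of portal to central was -4.32 ± 0.12 (SD, n = 3) for the glutamine synthetase gene Glul, -4.85 ± 0.13 for the glutamate transporter gene Slc1a2 and -2.66 ± 0.14 for the ornithine aminotransferase gene Oat.

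By the rule, Hal, Gls2 and Asl were higher in portal-scored nuclei, 3 of 10 members, beside 1.85% of the 13929 genes tested, and 0 were higher in central-scored nuclei, beside 2.41%. The median log2 ratio of portal to central over the members was 0.54, against -0.0033 over all genes tested. Hal had 583 CPM in portal-scored and 80.3 CPM in central-scored nuclei of ND, 160.2 and 20.6 CPM in STZ-HFHC 1, and 242 and 31.3 CPM in STZ-HFHC 2. The portal to central fold of Hal was 7.25, 7.77 and 7.73, so the folds lay close together although the levels did not. Gls2 had folds of 5.37 in ND against 7.41 and 5.74 in the STZ-HFHC mice, and Asl had folds of 2.10, 2.73 and 2.84. The mean log2 ratios were 2.92 ± 0.06 for Hal, 2.61 ± 0.25 for Gls2 and 1.34 ± 0.24 for Asl (SD, n = 3).

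Arg1, Otc, Ass1 and Cps1 were higher in portal-scored nuclei in 3 of 3 libraries, but under the limit in at least 1. Arg1 had portal to central folds of 1.42, 1.76 and 1.80 in ND, STZ-HFHC 1 and STZ-HFHC 2, and Otc had folds of 1.53, 1.46 and 1.61. Ass1 had folds of 1.23, 1.45 and 1.44, and Cps1 of 1.13, 1.40 and 1.56. Without STZ-HFHC 1, Otc passed the limit too. With 4 parts in place of 3, Otc and Arg1 passed it as well.

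Slc25a13 and Nags showed no portal bias. Slc25a13 had folds of 0.948, 0.860 and 0.934, and Nags had 0.999, 0.790 and 0.739 on few UMIs. The ornithine carrier Slc25a15 went in opposite directions: 375 CPM in portal-scored and 512 CPM in central-scored nuclei of ND, but 497 and 326 CPM in STZ-HFHC 1, and 742 and 549.6 CPM in STZ-HFHC 2. The log2 ratio of portal to central was -0.45 in ND against 0.61 and 0.43 in the STZ-HFHC mice. Over 5 equal bins of the score, Slc25a15 went from 509 CPM in the most central bin to 362 CPM in the most portal bin of ND, and from 314 to 519.8 CPM and from 542 to 745 CPM in the STZ-HFHC mice. The difference in direction was not tested, since ND has 1 library. Cps1 also had a different shape in ND, at 5359.7 CPM in the most central bin, 8488 CPM in the middle bin and 6949.6 CPM in the most portal bin. In the STZ-HFHC mice it was highest in the most portal bin, at 9991 and 12269.9 CPM. This was not particular to Cps1. Arg1 (1072, 2102 and 1894 CPM in the same bins) and, by less, Ass1 (776, 1092 and 1055 CPM) were highest in the middle bin of ND. Both were highest in the most portal bin of each STZ-HFHC library.

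**Figure D2:**
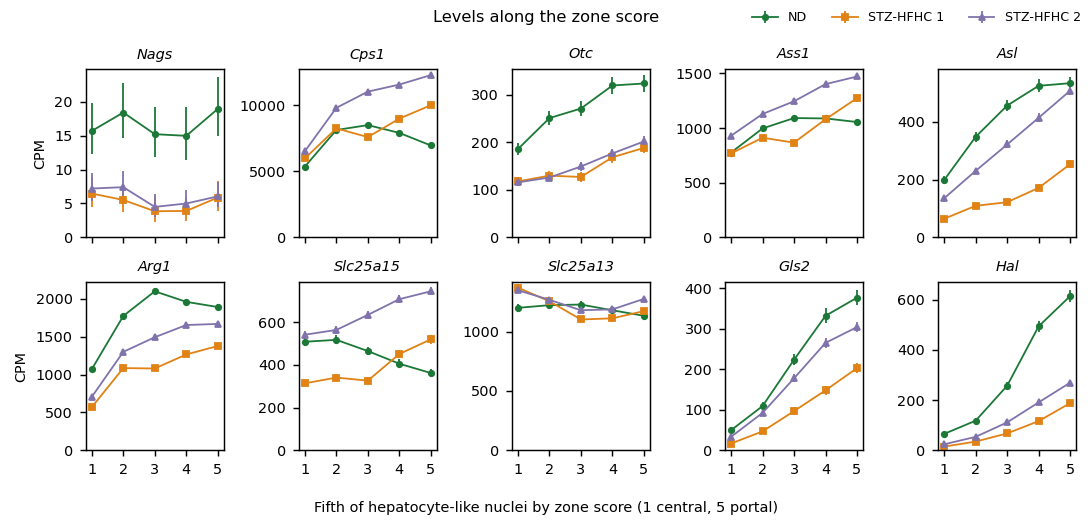
Level of each member in CPM (vertical axes, from 0) over 5 equal bins of hepatocyte-like nuclei by zone score, from 1 (most central) to 5 (most portal), with exact Poisson 95% intervals and 1 line per library. Hal, Gls2 and Asl climb toward the portal end in all 3 libraries, and Slc25a15 goes down in ND and up in both STZ-HFHC libraries.

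The differences between conditions were then measured within zones. In portal-scored nuclei, the log2 ratio to ND was -1.86 and -1.26 in the STZ-HFHC mice for Hal, and in central-scored nuclei it was -1.96 and -1.36. For Otc the values were -0.80 and -0.73 in portal-scored nuclei and -0.74 and -0.81 in central-scored nuclei. For Nags they were -1.72 and -1.51, then -1.38 and -1.08. In each of these parts by itself the called members were again Nags, Otc and Hal, so their counted level was lower at both ends of the score. The hepatocyte RNA counted in nuclei of every class was not removed. Its part in the levels of central-scored nuclei was not tested. Slc25a15 had log2 ratios of 0.40 and 0.98 in portal-scored nuclei and of -0.65 and 0.10 in central-scored nuclei. Cps1 had 0.41 and 0.74 in portal-scored nuclei and 0.11 and 0.28 in central-scored nuclei.

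**Figure D3:**
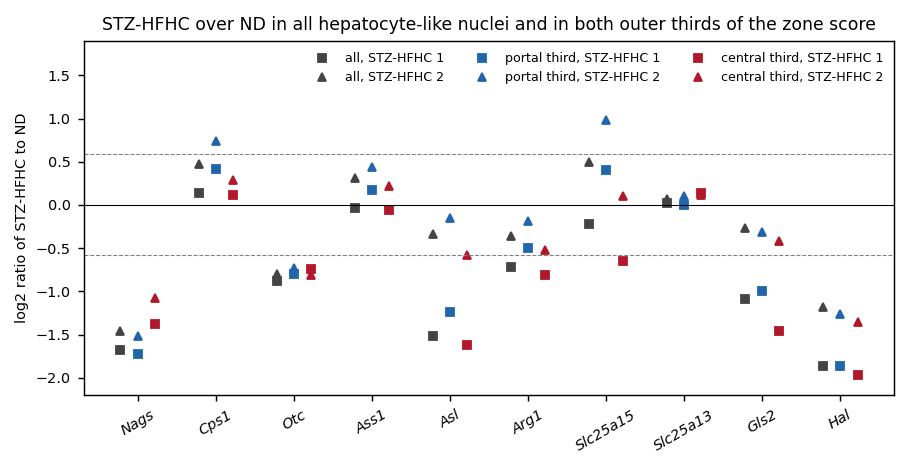
Log2 ratio of each STZ-HFHC library to ND for the members, in all hepatocyte-like nuclei (grey), in portal-scored nuclei (blue) and in central-scored nuclei (red), with dashed lines at 1.5-fold. Nags, Otc and Hal lie below the lower line in every group of nuclei, and Slc25a13 lies close to 0.

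Clusters of hepatocyte-like nuclei showed the same order. In the STZ-HFHC cluster whose leading genes included Lgr5 and Slc1a2, Hal was at 10.3 and 20.7 CPM in the STZ-HFHC mice, and Gls2 at 9.76 and 23.9 CPM. In the cluster led by Sult1e1 and holding Sds among its leading genes, Hal was at 204 and 246 CPM and Gls2 at 235 and 300.2 CPM. Cps1 was at 4538 and 4499.8 CPM in the former and at 11901 and 12774 CPM in the latter. Arg1 was at 283 and 387 CPM in the former and at 1537 and 1708 CPM in the latter. Nags showed no such contrast, with 5.73 to 8.04 CPM over both. The largest STZ-HFHC cluster lay between the former and the latter for Hal (50.9 and 47.0 CPM), Gls2 (66.8 and 93.6 CPM) and Cps1 (7395.5 and 9218 CPM).

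Among other nitrogen genes, a wider list of 66 had 60 members with enough UMIs for the comparison of conditions. Of these, 5 rose and 7 fell, beside 16.5% and 11.2% of all genes tested, so the share that fell was near that of all genes and the share that rose was below it. The list had a median log2 ratio of -0.13 as the mean of both mice, against 0.09 over all genes tested. The genes are given by name as a description only. Those that rose included the arginine transporter Slc7a2, the asparagine synthetase gene Asns and the coactivator Ppargc1a. Ppargc1a had 119.9 CPM in ND against 366 and 571 CPM in the STZ-HFHC mice, and Slc7a2 had 4071, 8190.0 and 8513 CPM. Asns rested on 4, 21 and 39 UMIs. The genes that fell were Oat, the aspartate aminotransferase gene Got2, the histidine breakdown gene Amdhd1, the glycine cleavage gene Gcsh, the branched-chain aminotransferase gene Bcat2, Arg2 and the glucagon receptor gene Gcgr. Arg2 rested on 30, 19 and 25 UMIs, and its counting intervals in ND (0.926–1.96 CPM) and the STZ-HFHC mice (0.439–1.14 and 0.459–1.05 CPM) overlapped. Gcgr had 282, 169 and 187 CPM. In the histidine route, Hal acts first, then Uroc1, Amdhd1 and Ftcd. Amdhd1 had 371 CPM in ND against 115 and 143 CPM in the STZ-HFHC mice, a fall like that of Hal. Uroc1 had 243, 177 and 282 CPM and Ftcd 399, 344 and 424 CPM, and neither passed the rule.

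Between zones, 8 of 58 genes of the wider list passed the rule on the portal side and 7 on the central side, beside 1.85% and 2.41% of the 13929 genes tested. Histidine, serine and glycine breakdown supplied 6 of the 8: Uroc1, Amdhd1, Ftcd, Sds, Sdsl and Gldc. The steepest was the serine dehydratase gene Sds, with a log2 ratio of portal to central of 3.32 ± 0.27 (SD, n = 3). The remaining portal genes were the amino acid transporter gene Slc3a1 and Ppargc1a. On the central side were all 4 measured genes of glutamine synthesis and ammonia capture (Glul, Slc1a2, Rhbg and Oat), the proline dehydrogenase gene Prodh, the mitochondrial carbonic anhydrase gene Car5a and the channel gene Aqp9. Car5a, which supplies bicarbonate to Cps1, had a log2 ratio of -0.82 ± 0.11 (SD, n = 3), on the other side from Cps1 at 0.43 ± 0.23.

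Over the 15 points made by 5 bins of the score in 3 libraries, the genes most like each member in log2 CPM were listed among 9591 genes with at least 500 UMIs. The points share 3 libraries and 1 score, so Pearson's r is only a description. Gls2 was most like the glycine cleavage gene Gldc (r = 0.991) and Gm15883 (0.990), and Hal was most like Cacna1d (0.981) and Mug2 (0.978). Asl was most like Pik3c2g (0.983) and Ogdh (0.980), and Arg1 was most like Proser2 (0.951) and Gm16573 (0.946). Cps1 was most like another member, Ass1 (0.922), and then Herpud1 (0.913), whereas Ass1 was most like Noct (0.940) and Etv6 (0.931). Otc was most like Grb14 (0.980) and Dlgap1 (0.976), and Nags like Cyp2d10 (0.981) and Slc22a28 (0.981). Slc25a15 was most like Btbd19 (0.944). Slc25a13 had the weakest matches, Prodh (0.850) and Tmem219 (0.835).

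The last comparison asked whether members were expressed in other classes of nuclei or only counted there as free hepatocyte RNA, which enters droplets from broken cells. RNA of 1 source keeps its genes in 1 ratio in every class. So the level of each member in a class was divided by its level in hepatocyte-like nuclei of the same library and set beside the same ratio for 25 genes of secreted plasma proteins made by hepatocytes. The ratio of these control genes had a median of 0.760 to 0.998 over 8 classes in ND, against 0.495 to 0.946 and 0.597 to 0.962 in the STZ-HFHC mice. In ND, then, other nuclei held nearly as large a share of hepatocyte RNA as hepatocyte-like nuclei did. Droplets that also held a hepatocyte nucleus cannot be told apart from free RNA by these ratios. In ND, endothelial cell-like and stellate cell or fibroblast-like nuclei had median depths of 5246 and 4714 UMIs, beside 4114.5 in hepatocyte-like nuclei. In the STZ-HFHC mice these classes were shallower than hepatocyte-like nuclei, at 1745.5 and 2225 UMIs in STZ-HFHC 1 and 1917 and 2231 in STZ-HFHC 2.

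A member was called above this background when it passed the highest control gene in every library. No member was called in any class, 0 of 10 each time, beside 2.36% of all 14729 genes in B cell-like nuclei, 3.46% in T or NK cell-like, 1.22% in cholangiocyte-like, 0.801% in dendritic cell-like, 16.2% in endothelial cell-like, 8.21% in macrophage or Kupffer cell-like, 4.84% in monocyte-like and 18.9% in stellate cell or fibroblast-like nuclei. The rule compares each gene with its own hepatocyte level, so it cannot exclude lower expression of a member in other classes. Cps1 shows the background well. In T or NK cell-like nuclei its ratio to hepatocyte-like nuclei was 0.921 in ND against 0.734 and 0.882 in the STZ-HFHC mice, beside control medians of 0.969, 0.821 and 0.844. With each nucleus thinned to 1000 UMIs, a Cps1 UMI was seen in 98.9% of 94 T or NK cell-like nuclei of ND (Clopper-Pearson 95% interval 94.2–100.0) and in 97.2% of 4364 hepatocyte-like nuclei (96.7–97.7). Unthinned, the shares were 99.2% and 99.6%, at median depths of 3062.5 and 4114.5 UMIs. These shares are at the level of background and are no sign of Cps1 expression in lymphocytes. Likewise an Arg1 UMI was seen, after thinning, in 78.7% of the T or NK cell-like nuclei of ND (69.1–86.5) and in 73.8% of hepatocyte-like nuclei (72.5–75.1).

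Measured against the control median of the same class and library, the members had medians of 0.833 to 1.15, while single values went from 0.642 to 1.59. Over up to 24 pairs of class and library with at least 10 UMIs, the median was 0.833 for Slc25a13, 0.851 for Slc25a15, 0.858 for Ass1, 0.915 for Cps1, 0.936 for Arg1, 0.959 for Otc, 0.996 for Gls2, 1.03 for Asl, 1.10 for Hal and 1.15 for Nags. Nags had 9 such pairs. The member with the widest range was Hal, from 0.764 to 1.59. In ND alone, Hal and Gls2 exceeded every control gene in some classes. Hal did so in 3 classes: its ratio was 1.47 in B cell-like, 1.34 in endothelial cell-like and 1.36 in stellate cell or fibroblast-like nuclei. Gls2 did so in 4, with 1.43 in T or NK cell-like, 1.36 in endothelial cell-like, 1.31 in macrophage or Kupffer cell-like and 1.25 in stellate cell or fibroblast-like nuclei. In ND endothelial cell-like nuclei, Hal stood at 401 CPM (386–416), above the 298 CPM of hepatocyte-like nuclei and below the 583 CPM of their portal-scored part. In the same class, Hal was under the highest control gene in both STZ-HFHC libraries, with ratios of 0.846 and 0.792. The part that portal hepatocytes have in the free RNA of ND was not tested.

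**Figure D4:**
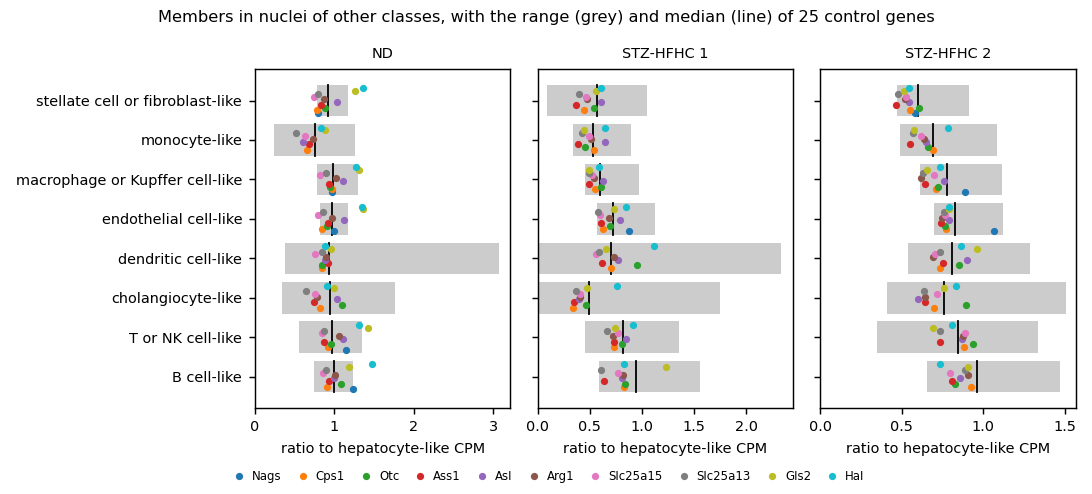
Ratio of each member's CPM in 8 other classes of nuclei to its CPM in hepatocyte-like nuclei of the same library (horizontal axis), for members with at least 10 UMIs, with the range of 25 control genes in grey and their median as a line. Most points lie inside the grey range, and the points to its right are Hal and Gls2 in ND.

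Paralogs of the members were measured in the same nuclei. Arg2, the paralog of Arg1, was called in macrophage or Kupffer cell-like nuclei, at 19.2 CPM in ND against 13.3 and 9.52 CPM in the STZ-HFHC mice, on 19, 45 and 23 UMIs. In hepatocyte-like nuclei Arg2 was near the limit of detection, with 30, 19 and 25 UMIs. Slc25a12, the paralog of Slc25a13, was at 56.8, 63.1 and 68.3 CPM in hepatocyte-like nuclei and was called in no class. It still passed every control gene in some libraries. In the STZ-HFHC mice it did so in macrophage or Kupffer cell-like (ratios of 1.40 and 1.14) and monocyte-like nuclei (1.38 and 1.29). In ND it did so in endothelial cell-like (1.17) and stellate cell or fibroblast-like nuclei (1.21). In STZ-HFHC 2 stellate cell or fibroblast-like (1.09) and dendritic cell-like nuclei (1.79) were added. Slc25a2, the paralog of Slc25a15, had 8, 3 and 12 UMIs in hepatocyte-like nuclei, too few for a comparison. Of the rest of the wider list, the creatine synthesis gene Gatm was called in endothelial cell-like, macrophage or Kupffer cell-like and stellate cell or fibroblast-like nuclei. Nos3, the endothelial nitric oxide synthase gene, was called in endothelial cell-like nuclei, and the glucocorticoid receptor gene Nr3c1 in monocyte-like nuclei. Arg2, Nos3 and Gatm passed the background from low hepatocyte levels, 1.37, 1.51 and 5.26 CPM in hepatocyte-like nuclei of ND. Members such as Cps1, at 7359 CPM there, would have to come near or above their hepatocyte level to pass. The calls of these genes therefore do not show that members expressed at lower levels would have been seen.

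**Figure D5:**
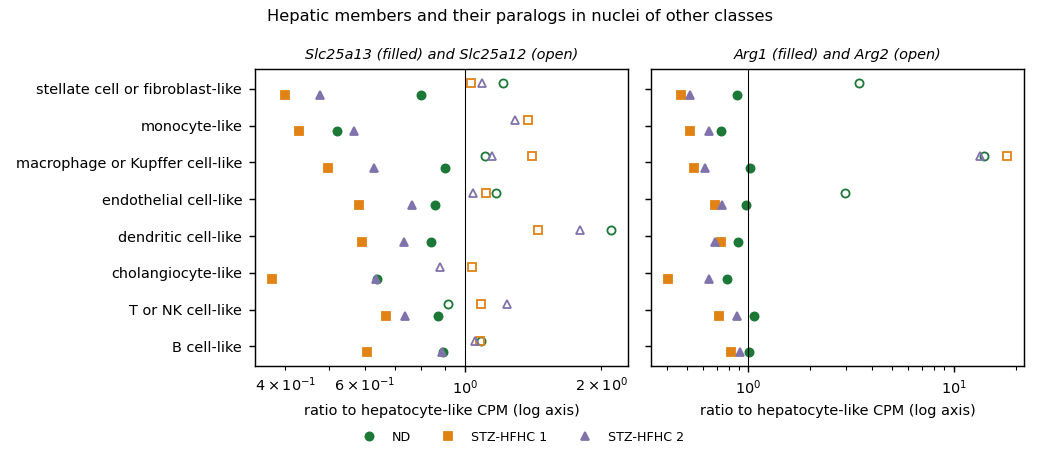
Ratio of CPM in other classes to CPM in hepatocyte-like nuclei (log axis) for Slc25a13 and Slc25a12 and for Arg1 and Arg2, with at least 10 UMIs, filled for the member and open for its paralog. Arg2 in macrophage or Kupffer cell-like nuclei lies from 13.4 to 18.2 while Arg1 lies from 0.405 to 1.06, and Slc25a12 lies from 0.878 to 2.10 while Slc25a13 lies from 0.373 to 0.900.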

How the data were processed

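The authors deposited whole-number UMI counts per gene and barcode for 1 ND and 2 STZ-HFHC libraries, made with Cell Ranger 7.0.1 on mm10 (from the submitters' processing notes) and not normalized. The deposited barcode and gene lists hold other values, which are names. Whether intronic reads were counted is not given in the sources used here. Libraries came from 10x 3′ v3.1 chemistry and held 77617520, 73942732 and 72934861 UMIs in ND, STZ-HFHC 1 and STZ-HFHC 2. Barcodes were kept at 200 to 5000 genes and up to 5% mitochondrial UMIs.

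Analyses used Python 3.11.15, Scanpy 1.11.5, anndata 0.12.19, scikit-learn 1.9.0, SciPy 1.17.1, NumPy 2.4.6, pandas 2.3.3, igraph 0.11.9 and matplotlib 3.10.9. Counts scaled to 10000 per nucleus were put on a log scale, and all nuclei were clustered in 1 run (2000 variable genes, 30 components, 15 neighbors, Leiden resolution 1) without the members and the wider list. Markers counted as raised at 2-fold or more over the median of the other clusters of the main library, in at least 5% of nuclei. A class needed 3 raised markers and a fixed minimum share of its list. Clusters with at least 50% of the markers of a second list raised stayed unnamed. So did those with 5 mitochondrial genes among 10 leading genes, or with a median depth under 50% of the library's and no list raised. These rules were revised after the clusters had been seen. They left out a mitochondrial cluster (10.4% of ND nuclei, against 0.0112% and 0.0275% in the STZ-HFHC libraries) and a shallow cluster (0.118%, 11.2% and 5.37%), both rich in hepatocyte RNA. Scrublet's own threshold marked 1, 0 and 0 nuclei and had not worked, so doublets were kept, and the highest 8% of scores (713, 810 and 921 nuclei) were removed only as an alternative.

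Summed UMIs per library were given as CPM, with 0.5 added to each count for ratios. Rules of size replaced tests, needing 50 UMIs. Means ± SD are over libraries, and intervals cover counting error only. Coordinates are GENCODE M21 (32158 of 32285 identifiers matched). Each rule was tested on simulated data with known folds. The simulated libraries differed less from each other than the real ones did for several members, so no error rates for these data follow. The members and lists were chosen with earlier results of these data known. The text names all members, paralogs, up to 4 genes a group of the wider list that passed a rule by the smaller ratio, Glul, Slc1a2 and Oat, and the 2 genes most like each member, except a few that are not reported here. A few others (Uroc1, Ftcd, Lgr5 and Sult1e1 among them) were chosen after their values were seen. Alternatives changed the fold limit, scaling, depth, barcode limits, doublets, clustering, zone score, control genes and libraries.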

Additional observations from a re-analysis of the deposited data

Results flagged for a closer look

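The ornithine carrier gene Slc25a15 was marked for a closer look because ND went one way along the zone score and both STZ-HFHC libraries the opposite way. Its log2 ratio of portal-scored to central-scored hepatocyte-like nuclei was -0.45 in ND against 0.61 and 0.43 in the STZ-HFHC mice. In each library the counting intervals of the portal-scored and central-scored levels did not overlap. The difference between conditions was not tested, since there was 1 ND library.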

How the results depend on the processing

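Nags, Otc and Hal were the called members between conditions with median ratio scaling, with nuclei thinned to 1000 UMIs, without limits on barcodes, without the highest doublet scores, at Leiden resolution 0.5 and without a minimum of UMIs. Dropping the minimum could not change a member's call, since every member was above it. At a 2-fold limit, 2 were called, Nags and Hal. Leaving out an STZ-HFHC library gave 3 to 6 called members, with 6 where STZ-HFHC 2 was left out. Such a step can only keep or add calls, since each rule needs every library to pass. Between zones, the called members were 5 with 4 parts of the score (Otc, Asl, Arg1, Gls2 and Hal), 3 to 4 when an STZ-HFHC library was left out, and 3 (Asl, Gls2 and Hal) under each of the other alternatives run. No member was called above the control genes in another class under any alternative run, leaving out a library included (0 to 0). Counting the mitochondrial and shallow clusters as hepatocyte-like, an alternative chosen after seeing the data like the comparison within zones, left these calls as they were. Of the single members' log2 ratios between conditions under these alternatives, 112 moved by less than 1 SD and 8 by more. Of those between zones, 89 moved by less and 11 by more. Part of the smaller moves was fixed in advance. The fold limit and the minimum of UMIs do not enter the ratios, and leaving out a library cannot move a mean by 1 SD. No called member changed sign. Median ratio scaling shifted log2 ratios by 0.06 in STZ-HFHC 1 and 0.08 in STZ-HFHC 2. Over all genes it gave 2153 higher and 1892 lower, beside 2427 and 1652 in the text above, and 4700 and 3408 without a minimum of UMIs. No paired analysis was possible because the groups share fewer than 2 replicate numbers. Depth limits Nags most, and free hepatocyte RNA within hepatocyte-like nuclei was not removed.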
